A study of Mus musculus with 6 samples.

Results

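Gut hormone genes were followed across the epithelium of mouse intestinal organoids, and the 10 genes described are Gip, Cck, Tac1, Nts, Sst, Gcg, Ghrl, Sct, Pyy and Tph1. They were chosen by name as the precursor genes of gut peptide hormones, together with the gene of the enzyme that starts serotonin synthesis, and all 10 were among the 31319 genes of the count matrices. The organoids, which are epithelial cultures that hold stem cells and their descendants, came from the jejunum of C57BL/6 mice of 8-12 weeks and were grown in medium taken from cultured mouse embryonic fibroblasts. In the control group the fibroblasts were quiescent after serum deprivation (quiescent conditioned medium, QCM), and in the other group they were senescent (senescent conditioned medium, SCM). RNA was counted by single-nucleus RNA-seq in 3 QCM and 3 SCM libraries, to ask whether medium from senescent fibroblasts alters the epithelium. No label names the animal or culture behind a library, so the spread between libraries may be technical in part, and conditioned media also carry whatever else the fibroblasts released.

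Enteroendocrine cells are the scattered hormone-secreting cells of the gut epithelium. They sense nutrients and other contents of the lumen and release peptides or serotonin at their base. In the small intestine the classical names follow the main product. K cells make GIP and L cells make GLP-1 and PYY from Gcg and Pyy. I cells make CCK, S cells secretin, N cells neurotensin, D cells somatostatin and X cells ghrelin. Enterochromaffin cells make serotonin through Tph1 and often the tachykinin substance P from Tac1. Single cells often carry more than 1 of these messages, and the set can shift as a cell migrates along the villus.

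The genes lie on 7 chromosomes of the mouse genome GRCm38 (GENCODE M21). Gip (ENSMUSG00000014351, glucose-dependent insulinotropic polypeptide) spans chromosome 11 from 96024545 to 96030831, and Gcg (ENSMUSG00000000394, proglucagon) chromosome 2 from 62474530 to 62483650. Cck (ENSMUSG00000032532, cholecystokinin) spans chromosome 9 from 121489824 to 121495694, and Sct (ENSMUSG00000038580, secretin) chromosome 7 from 141278330 to 141279133. The protein of Pyy (ENSMUSG00000017311) is peptide YY, and the gene lies on chromosome 11 from 102106676 to 102107832. Nts (ENSMUSG00000019890, neurotensin) lies on chromosome 10 from 102481756 to 102490486, Sst (ENSMUSG00000004366, somatostatin) on chromosome 16 from 23889573 to 23890958, and Ghrl (ENSMUSG00000064177, ghrelin) on chromosome 6 from 113716119 to 113719880. Ghrl overlaps Gm26982 and Gm44033 on the other strand, and whether the counting used strand is not given in the sources used here, so its counts are uncertain. Tac1 (ENSMUSG00000061762, tachykinin precursor) spans chromosome 6 from 7554879 to 7565834, and Tph1 (ENSMUSG00000040046, tryptophan hydroxylase of the gut) chromosome 7 from 46644641 to 46672537.

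The promoters of 5 genes are printed here, those of the 3 abundant peptide hormones of cluster 9 and of the 2 genes that led cluster 10, as the 250 bases before each RefSeq start on GRCm38.p6, 5′ to 3′ on the strand of the gene. All 10 genes matched the RefSeq promoter table. Capitals mark the letters TATAAA (the core promoter box), CAGATG (an E box of the kind that basic helix-loop-helix factors read), TAATTA (a homeodomain core) and AGATAA (read by the zinc finger factors of the gut named for that core), searched on both strands. The letters TGACGTCA, the cyclic AMP response element, were searched as well. Gip (chr11:96024295-96024544, plus strand), Cck (chr9:121495695-121495944, minus strand) and Gcg (chr2:62483654-62483903, minus strand) were the former. Tac1 (chr6:7554811-7555060, plus strand) and Tph1, which has 2 listed starts (chr7:46672538-46672787 and chr7:46667378-46667627, minus strand), were the latter.
Gip: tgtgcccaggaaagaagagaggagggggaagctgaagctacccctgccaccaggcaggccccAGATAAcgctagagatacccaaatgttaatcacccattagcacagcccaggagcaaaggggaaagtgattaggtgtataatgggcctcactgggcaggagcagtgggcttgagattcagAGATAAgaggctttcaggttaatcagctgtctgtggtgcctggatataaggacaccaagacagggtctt
Cck: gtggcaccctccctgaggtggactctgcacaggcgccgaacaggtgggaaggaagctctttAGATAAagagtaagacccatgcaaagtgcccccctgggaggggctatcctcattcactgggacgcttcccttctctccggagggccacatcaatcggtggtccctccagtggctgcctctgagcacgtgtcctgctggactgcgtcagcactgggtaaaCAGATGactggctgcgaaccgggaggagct
Gcg: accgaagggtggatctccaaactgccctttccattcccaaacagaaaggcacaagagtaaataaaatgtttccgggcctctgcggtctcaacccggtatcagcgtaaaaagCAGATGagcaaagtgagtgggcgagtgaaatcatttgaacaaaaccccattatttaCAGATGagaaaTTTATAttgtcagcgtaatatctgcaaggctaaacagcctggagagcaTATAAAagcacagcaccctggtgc
Tac1: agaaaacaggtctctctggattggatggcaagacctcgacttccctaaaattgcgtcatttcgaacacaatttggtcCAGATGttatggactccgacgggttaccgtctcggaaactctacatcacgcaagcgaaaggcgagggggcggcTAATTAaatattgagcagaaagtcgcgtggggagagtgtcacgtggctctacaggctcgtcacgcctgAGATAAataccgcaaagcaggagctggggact
Tph1, upstream start: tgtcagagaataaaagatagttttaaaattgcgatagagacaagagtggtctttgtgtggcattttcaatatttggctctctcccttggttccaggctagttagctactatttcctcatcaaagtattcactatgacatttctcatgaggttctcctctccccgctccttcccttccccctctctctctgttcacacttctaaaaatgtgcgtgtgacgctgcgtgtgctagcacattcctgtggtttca
Tph1, downstream start: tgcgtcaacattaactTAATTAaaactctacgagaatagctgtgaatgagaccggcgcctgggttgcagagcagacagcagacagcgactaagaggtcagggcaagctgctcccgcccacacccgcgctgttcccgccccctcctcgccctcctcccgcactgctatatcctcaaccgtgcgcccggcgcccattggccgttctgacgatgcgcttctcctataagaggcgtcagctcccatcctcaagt

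Gcg was the only one of these 5 genes whose window held TATAAA, at position -24 from the start and again on the reverse strand at -72. It also held CAGATG at -139 and -83, and Cck held CAGATG at -30 and AGATAA at -189. Gip held AGATAA at -188 and -69. Tac1 held CAGATG at -173, TAATTA at -100 and AGATAA at -32. In Tph1 the upstream start held none of the motifs and the downstream start TAATTA at -234. Among the other members, Sct held TATAAA at -28 and CAGATG at -242, Nts AGATAA at -131 and Sst TGACGTCA at -48. Of the 32851 promoter windows in the table, 12.4% held TATAAA, 14.4% CAGATG, 9.99% AGATAA, 4.84% TAATTA and 1.55% TGACGTCA. These matches describe letters and do not show that a factor binds.

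The libraries held between 430 and 10833 nuclei, 38154 in all, and between 4071926 and 41035733 unique molecular identifiers (UMIs), the counted RNA molecules. QCM replicate 1 was the deepest, with a median of 8260 UMIs per nucleus against 1578 to 3156.5 in the others, and SCM replicate 1 was the smallest. Both replicate 1 libraries stood apart. Xist, which is transcribed from an inactive X chromosome, had 4096 and 6606 counts per 1000000 UMIs (CPM) in them and at most 2.51 CPM in the others, while the labels give no sex. They also shared 175 nuclear barcodes, or 40.7% of those in SCM replicate 1, where other pairs of libraries shared at most 0.358%. Nuclei with a shared barcode lay in the same cluster in 22.9% of cases, and no share for unrelated nuclei was computed. The median correlation was 0.386 for the same barcode and 0.387 for the next barcode. In clusters 9 and 10, 8 of the nuclei carried a shared barcode. The main comparisons of the media are also given without replicate 1 libraries.

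Of the 10 genes, 9 had their highest pooled CPM in cluster 9 or cluster 10 of the 15 deposited clusters. Nts had its highest in cluster 7, an order that turned without the deepest nuclei, as given below. Cluster 9 (782 nuclei) and cluster 10 (483 nuclei) made up 3.32% of nuclei. The label of these clusters was checked against 8 enteroendocrine markers. All 8, among them the granule protein genes Chga and Chgb and the transcription factor genes Neurod1, Pax6 and Rfx6, were at least 2-fold above the other nuclei in cluster 9, where their summed level was 1189 CPM against 112 CPM. In cluster 10, 5 of 8 passed, with a sum of 991.5 CPM against 131.7 CPM, and Neurog3, Pax6 and Scg3 did not. The hormone genes were available to the clustering, so their differences between clusters are given as a description with no test.

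In cluster 9 the peptide hormone genes dominated. Gip, the incretin gene of K cells, reached 806 CPM in cluster 9 against 66.7 CPM in cluster 10, a ratio of 12.1. Clusters 0 to 8 and 11 to 13 lay between 28.3 and 89.2 CPM, so cluster 10 was within the range of these clusters. Ranges of levels given below as elsewhere cover the same clusters and leave out cluster 14. Cck, the gene of the hormone that empties the gallbladder, followed the same order with 526 CPM in cluster 9, 57.9 CPM in cluster 10 and 31.6 to 87.8 CPM elsewhere. Gcg, the source of GLP-1, had 620.2 CPM in cluster 9 and 39.5 CPM in cluster 10, a ratio of 15.7, against 19.4 to 67.9 CPM elsewhere. Sct, whose product stimulates bicarbonate secretion, had 63.2 CPM in cluster 9 and 6.13 CPM in cluster 10, against 2.24 to 14.3 CPM elsewhere. Cluster 9 therefore held each of these 4 genes well above every other cluster.

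Cluster 10 was led by the serotonin enzyme and the tachykinin gene. Tph1 reached 125 CPM there, 10.04 CPM in cluster 9 and 0 to 6.71 CPM elsewhere. Tac1 had 153 CPM in cluster 10, 18.2 CPM in cluster 9 and 2.48 to 11.4 CPM elsewhere. The ratios of cluster 9 to cluster 10 were 0.0802 for Tph1 and 0.119 for Tac1. By these 2 genes cluster 10 carried the pair of messages for which enterochromaffin cells are known.

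The 4 remaining genes were scarce in both clusters. Ghrl had 27.95 CPM in cluster 9 against 5.72 to 23.8 CPM in the 12 other clusters named above, and 11.6 CPM in cluster 10. Pyy, a hormone mainly of the distal gut that slows emptying, had 23.3 CPM in cluster 9 and 2.05 to 11.2 CPM elsewhere. Sst, the inhibitory peptide of D cells, had 8.41 CPM in cluster 9 and 12.3 CPM in cluster 10 against 0.70 to 2.24 CPM elsewhere. These were low levels that rested on few nuclei. Nts was the exception to the pattern, with 23.6 CPM in cluster 9, 2.72 CPM in cluster 10 and its highest level, 40.0 CPM, in cluster 7. Without the 5% of nuclei with the most UMIs, Nts had 52.6 CPM in cluster 9 and 8.26 CPM in cluster 7. Cluster 14 (92 nuclei, a median of 39432.5 UMIs per nucleus) had the lowest Gip level at 3.18 CPM.

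**Figure D1:**
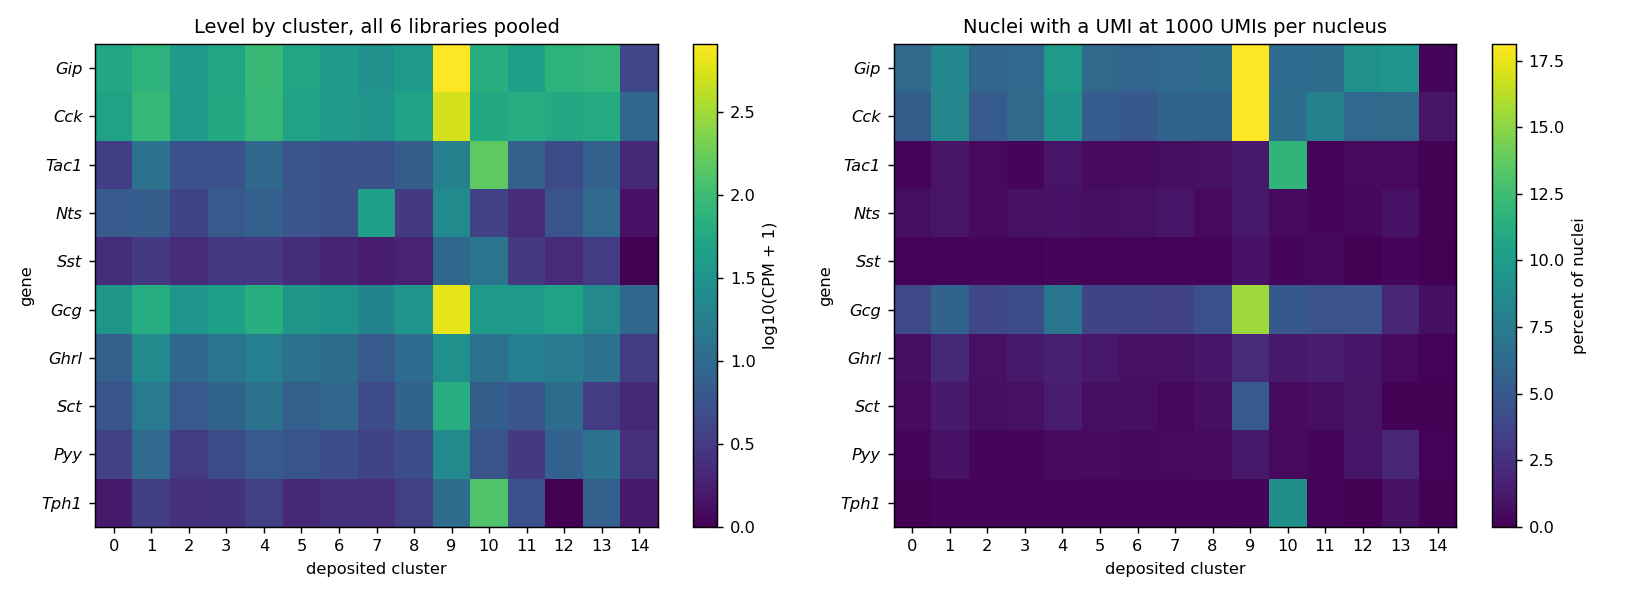
Heat maps of the 10 genes (rows) in the deposited clusters 0 to 14 (columns), at left as log10(CPM + 1) of the UMIs pooled over libraries and at right as the percentage of nuclei expected to hold a UMI of the gene after thinning every nucleus to 1000 UMIs. Gip, Cck, Gcg and Sct peaked in cluster 9, Tac1 and Tph1 in cluster 10, and the highest Nts level at left, 40.0 CPM, was in cluster 7. At right Nts had 1.24% in cluster 9 and 1.13% in cluster 7.

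Most hormone UMIs lay outside the hormone clusters. Of 32649 UMIs of the 10 genes, 7837 were in cluster 9, 705 in cluster 10 and 24107 (73.8%) elsewhere, although those 2 clusters held only 3.77% of all UMIs. Background was therefore read from enterocyte-like cluster 8 and tuft-like cluster 11, named by 5 of 7 and 3 of 7 markers. After thinning to 1000 UMIs, 18.1% of cluster 9 nuclei were expected to hold a Gip UMI, against 6.31% in cluster 10, 6.50% in cluster 8 and 6.43% in cluster 11. For Cck the shares were 18.1%, 6.52%, 5.78% and 7.95%, and for Gcg 15.5%, 4.97%, 4.42% and 4.67%, in the same order of clusters. Before thinning, a Gip UMI was found in 26.6% of cluster 9, 15.9% of cluster 10, 15.7% of cluster 8 and 14.5% of cluster 11 nuclei, at median depths of 2156.5, 1903, 2366.5 and 2080.5 UMIs. The Gip, Cck and Gcg found in cluster 10 thus lay close to the background share, and the shares of cluster 9 lay above it. Over clusters 0 to 8 and 11 to 13 the thinned share of Gip reached 9.86% and that of Cck 9.22%.

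Tph1 and Tac1 had little background in clusters 8 and 11. The thinned share of nuclei with Tph1 was 9.02% in cluster 10 against 0.294% in cluster 9, 0.245% in cluster 8 and 0.180% in cluster 11. For Tac1 it was 11.9% in cluster 10 against 1.26%, 0.801% and 0.153%. Over clusters 0 to 8 and 11 to 13 the thinned share reached 0.820% for Tph1 and 1.06% for Tac1. Outside clusters 9 and 10 lay 48.7% of Tph1 and 71.5% of Tac1 UMIs. Sct gave 5.13% in cluster 9 against 0.711% in cluster 8 and 0.729% in cluster 11. The ratio of Gip to Cck UMIs outside the hormone clusters differed between libraries. Over those of clusters 0 to 8 with at least 20 UMIs of each gene (4 to 9 clusters a library) it ran from 0.423 to 0.667 in QCM replicate 1, from 1.17 to 1.70 in QCM replicate 2 and from 1.11 to 1.59 in QCM replicate 3, and from 0.497 to 1.14 and from 0.621 to 1.25 in SCM replicates 2 and 3. In cluster 9 it was 0.679, 0.855 and 2.39 in QCM and 2.57 and 0.910 in SCM, so it lay inside the range of the other clusters in SCM replicate 3.

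Inside cluster 9 the 3 abundant hormones were not spread evenly. A nucleus was called high for a gene at 5 or more UMIs, a level set after the counts were seen. By this limit 76 nuclei were high for Gip, 61 for Gcg and 60 for Cck, and 135 of the 782 (17.3%) were high for at least 1 of them. High nuclei outside clusters 9 and 10 numbered 18 for Gip, 10 for Gcg and 23 for Cck. A single nucleus held 651 Gip UMIs, 6.63% of the UMIs of that gene in all libraries. The strong hormone signal thus came from a minority of nuclei, and the remaining 647 had low counts of all 3 genes.

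Cck and Gcg were high in the same nuclei for the larger part, and Gip overlapped with each of them less. There were 42 nuclei high for both Cck and Gcg, or 70.0% of the Cck-high and 68.9% of the Gcg-high nuclei. Gip and Gcg were both high in 12 nuclei, or 15.8% of the Gip-high and 19.7% of the Gcg-high. For Gip and Cck there were 17 such nuclei, 22.4% of the Gip-high and 28.3% of the Cck-high. Nuclei high for all 3 numbered 9. Counts of 1 UMI or more were then read in the high nuclei. A Cck UMI was present in 88.5% of Gcg-high nuclei (Wilson 95% interval 78.2% to 94.3%) and in 24.4% of the other nuclei, whereas a Gip UMI was present in 37.7% and 25.7%. Gip was not exclusive of either. In Gip-high nuclei a Gcg UMI was present in 48.7% against 21.2% of the others. A Cck UMI was present in 75.0% of Gip-high nuclei against 24.5% of the others, and, at a limit of 1 UMI, in 47.1% of nuclei with Gip against 23.0% of those without. Depth differed too, with a median of 6066 UMIs in Gcg-high nuclei against 2049 in the others, and 3345 against 2105 for Gip, and the part of depth in these shares was not tested. Intervals of this kind cover counting error only.

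The counts were then taken library by library. Cck-high and Gcg-high nuclei numbered 5 and 6 in QCM replicate 1 with 5 in common, 15 and 17 in QCM replicate 2 with 10 in common, and 23 and 16 in QCM replicate 3 with 12 in common. In SCM replicate 2 there were 6 and 10 with 6 in common, and in SCM replicate 3 there were 11 and 10 with 9 in common. Gip-high nuclei numbered 3, 13 and 42 in the QCM libraries, and 0, 3 and 5 of them were also Gcg-high. Gip-high and Cck-high nuclei had 0, 4 and 10 in common there, close to the 12 of Cck and Gcg in QCM replicate 3. SCM replicate 1, with 3 nuclei of cluster 9, had 0 nuclei high for both Cck and Gcg and 1 high for both Gip and Gcg. In the other 5 libraries nuclei high for Cck and Gcg outnumbered those high for Gip and Gcg.

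**Figure D2:**
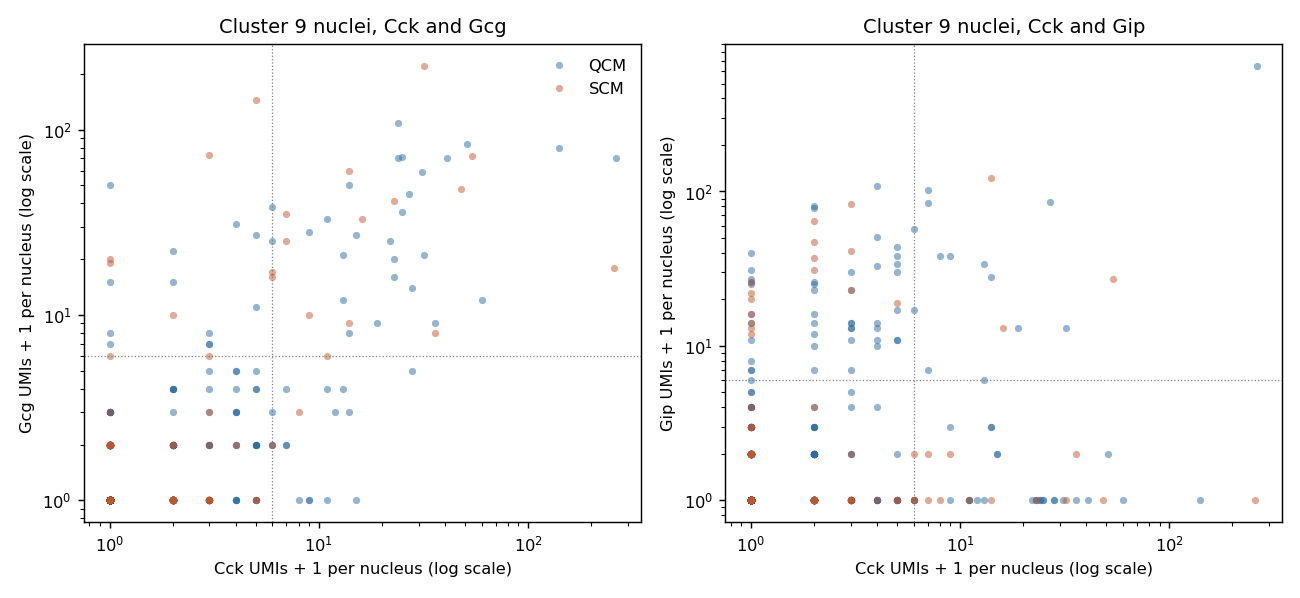
Each point is 1 of the 782 nuclei of cluster 9, with Cck UMIs + 1 against Gcg UMIs + 1 at left and Cck UMIs + 1 against Gip UMIs + 1 at right, on log axes, coloured by medium, with dotted lines at 5 UMIs. At left 42 nuclei lie beyond both lines, while at right 17 do.

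Sct and Pyy were read in the same nuclei. An Sct UMI was present in 49.2% of Gcg-high nuclei against 8.74% of the others, and a Pyy UMI in 32.8% against 1.39%. Nuclei high for Gip alone also held Sct more often than nuclei with no high hormone of the 3, at thinned shares of 12.8% and 1.99%, while Pyy had 0.667% and 0.118%. All 12 Sct-high nuclei, which were all in cluster 9, also held Cck and Gcg UMIs. Of Pyy there were 6 high nuclei, again all in cluster 9. Hormones of the classical I, L and S cells were therefore counted in overlapping nuclei of these jejunal organoids. Nts was high in 4 nuclei of cluster 9, which together held 70 Nts, 145 Gcg, 33 Chgb and 24 Rfx6 UMIs. Ghrl was high in 7 nuclei of cluster 9 and 2 elsewhere. Sst was high in 4 nuclei of all 38154, with 9, 5 and 5 UMIs in cluster 9 and 13 UMIs in a single SCM replicate 3 nucleus of cluster 10, which held 13 of the 18 Sst UMIs of that cluster. Hhex, a regulator of somatostatin cells, had 1 and 3 UMIs in 2 of the 3 nuclei of cluster 9. These 3 held 0 Gcg UMIs and 0, 0 and 2 Cck UMIs, too few nuclei to read an overlap.

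Nuclei of cluster 9 were then compared by hormone for genes other than the 10, in 4 classes that the hormone counts defined. There were 56 nuclei high for Gip alone, 59 high for Cck or Gcg without Gip, 20 high for both kinds and 647 high for none, with medians of 2704.5, 4760, 7476.5 and 1938 UMIs. Etv1, an ETS family transcription factor gene, had 706 CPM in the Cck or Gcg class, 149 CPM in the Gip class and was expected in 57.2%, 19.1% and, among nuclei with no high hormone, 4.52% after thinning. An Etv1 UMI was found in 6 of 6, 17 of 17 and 14 of 16 Cck or Gcg nuclei of the QCM libraries and in 1 of 1, 7 of 9 and 10 of 10 of the SCM libraries. In the Gip class it was found in 1 of 3, 3 of 8 and 10 of 31 QCM nuclei, and in 1 of 3 and 8 of 11 nuclei of SCM replicates 2 and 3. The share was thus higher in the Cck or Gcg class in each of the 5 libraries that held both classes.

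Other genes of the Cck or Gcg class were receptors and granule proteins. Ffar1, a receptor of long-chain fatty acids, had 57.8 CPM there and 5.41 CPM in the Gip class, and Gpr119, a receptor of lipid amides, 36.4 CPM and 8.11 CPM. The granule genes Chga, Chgb and Scg2 had 285, 1474 and 175 CPM there against 43.3, 541 and 32.4 CPM in the Gip class. The transcription factor genes Onecut3 and Lmx1a had 57.8 and 68.4 CPM against 2.70 and 5.41 CPM, from 27 UMIs in 9 nuclei and 32 UMIs in 6 nuclei against 1 and 2 UMIs. Rfx6, which acts in most enteroendocrine cells, had 582 and 773 CPM, and Abcc8, a subunit of the potassium channel that ATP closes, had 98.4 and 122 CPM. The thinned shares of nuclei had the other order, with 47.9% and 43.4% for Rfx6 and 12.9% and 11.4% for Abcc8, so no order was read for these 2 genes. Neurog3, which marks progenitors, had 28.2 CPM in nuclei with no high hormone, 12.8 CPM in the Cck or Gcg class and 2.70 CPM in the Gip class. The choice of these genes followed a look at their values, and the levels are descriptions.

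In cluster 10, 114 nuclei held a Tac1 UMI, 81 a Tph1 UMI and 42 (8.70%) both, while 330 (68.3%) held neither. Tac1 was present in 51.9% of nuclei with Tph1 (Wilson 95% interval 41.1% to 62.4%) and in 17.9% of those without (14.5% to 22.0%). Nuclei with both had a median of 3593 UMIs, against 1907.5 with Tac1 alone, 1899 with Tph1 alone and 1815.5 with neither. Tac1 was thus found more often where Tph1 was counted, the nuclei with both were deeper, and the part of depth was not tested.

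Genes around serotonin release were compared between these classes. Slc18a1, which loads serotonin into granules, had 442 CPM with both, 112 CPM with Tac1 alone, 245 CPM with Tph1 alone and 50.4 CPM with neither. Ddc, the second enzyme of serotonin synthesis, followed the same order with 427, 144, 233 and 80.9 CPM. The transcription factor gene Lmx1a, known for its role in enterochromaffin cells, had 593, 119, 126 and 149 CPM. Trpa1, the irritant channel by which these cells sense chemicals, had 77.4 CPM with both and 3.51 to 12.6 CPM in the other classes. Rab3c, a vesicle protein gene, had 766, 105, 163 and 41.1 CPM, and the sodium channel gene Scn3a had 788, 133, 339 and 107.5 CPM. These 6 genes were highest where both messages were counted, and the choice of the last 4 followed a look at their values. Maoa, which degrades serotonin, had 66.3, 70.1, 126 and 134 CPM in the same order of classes. The serotonin transporter gene Slc6a4 had 22.1, 14.02, 6.29 and 42.5 CPM, the first from 6 UMIs. Neither had its highest level where both messages were counted.

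Nts was also counted in a few nuclei with many Nts UMIs outside the hormone clusters. In cluster 7 (1442 nuclei), 9 nuclei held 314 of the 343 Nts UMIs of the cluster (91.5%) and 30.6% of all Nts UMIs, with 5 to 77 UMIs each and a median of 39. No nucleus outside clusters 7 and 9 held 5 or more Nts UMIs. These 9 came from QCM replicate 2 (4 nuclei), QCM replicate 3 (3) and SCM replicate 2 (2), so both media held some. Of the 8 enteroendocrine markers, 7 were at 0 UMIs in them and Chgb had 1 UMI. Stromal and immune markers were also at 0, and the epithelial genes Epcam, Krt8 and Cdh1 were found in 9 of 9. Their median depth was 18395 UMIs, against 2367 in the rest of the cluster.

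Several genes were picked from the values themselves. Vnn1 (an enzyme on the cell surface), Serpinb9b (a protease inhibitor) and Wfdc2 (a secreted antimicrobial protein) were 26.0, 26.0 and 17.8 times as high in these nuclei as in the other nuclei of cluster 7. The trefoil gene Tff3 had 1427 CPM against 264 CPM, while the mucin gene Muc2 was at 0. Lgr5 and Smoc2, genes of crypt base stem cells, had 65.8 and 65.8 CPM against 327 and 439 CPM. Several markers of enterocytes and Paneth cells were lower as well. The enterocyte genes Fabp1 and Sis had 52.6 and 13.2 CPM against 487 and 229 CPM. The Paneth gene Itln1 had 32.9 CPM against 320 CPM. Of the Paneth and enterocyte markers only Apoa1 (164 against 110 CPM) and Alpi (13.2 against 5.34 CPM) were higher. The goblet marker Clca1 (39.5 against 13.3 CPM) was higher too, from 6 UMIs. So were the tuft markers Ptgs1 (26.3 against 5.70 CPM) and Avil (13.2 against 6.17 CPM), from 4 and 2 UMIs. The goblet markers Fcgbp, Spdef and Zg16 and the tuft markers Dclk1 and Trpm5 were lower. Without these nuclei, Nts over all nuclei had 0.731, 6.42 and 14 CPM in the QCM libraries and 0, 4.47 and 5.71 CPM in the SCM libraries.

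**Figure D3:**
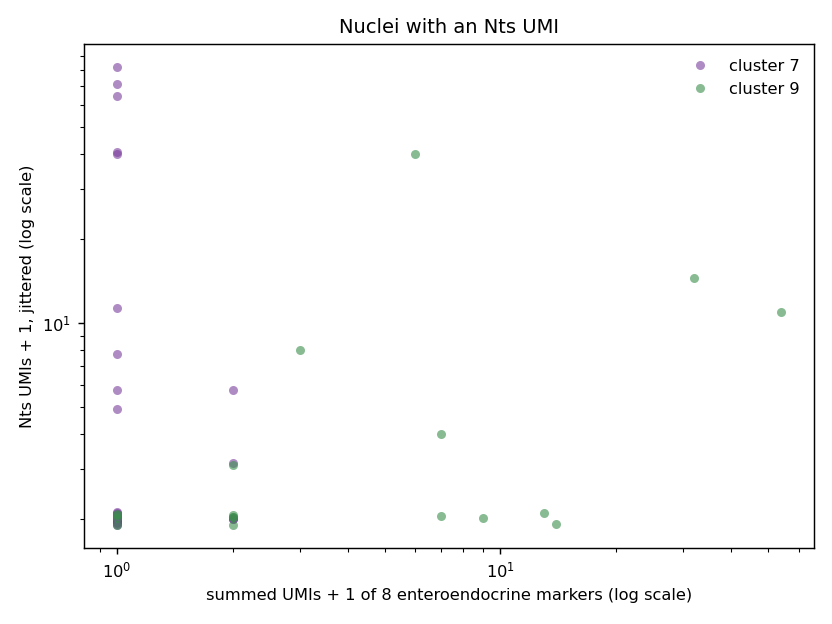
Nts UMIs + 1 of single nuclei of clusters 7 and 9 against the summed UMIs + 1 of 8 enteroendocrine markers, on log axes. The 9 nuclei of cluster 7 with 5 or more Nts UMIs sit at the left, since together they held 1 marker UMI, while the 4 nuclei of cluster 9 sit further right.

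The genes whose levels went most closely with each hormone were sought over 81 sums of a library and a cluster, by Pearson correlation of log2(CPM + 1) among 17319 genes. The sums share libraries and depth, so the values are descriptions. Gcg was closest to Etv1 (r 0.765), Chgb (0.725) and Sphkap (0.723), and Cck to Chgb (0.736). Tph1 was closest to Scn3a (0.832), the amino acid transporter gene Slc38a11 (0.806) and Lmx1a (0.795). Tac1 was closest to Rab3c (0.779), Trpc7 (0.775) and Slc38a11 (0.775), so a transporter gene was shared by the 2 lists. Sct was closest to Aplp1 (0.726). For Gip the leading gene was the ribosomal protein gene Rpl35 (0.712), followed by Chgb (0.666), and for Nts it was the Y-linked gene Kdm5d (0.653), which differs between the replicate 1 libraries and the others.

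Genes that act with the hormones were measured by role. Chgb had 425 CPM in cluster 9, 538 CPM in cluster 10 and 76.6 CPM in the nuclei of all other clusters pooled. Cpe, which trims prohormones, had 215 CPM in cluster 9 and 24.5 CPM in cluster 10, whereas Chga was higher in cluster 10 with 221 CPM against 71.6 CPM. Among 20 transcription factor genes, Rfx6 (377 and 133 CPM) and St18 (204 and 33.4 CPM) were higher in cluster 9. Etv1 (167 and 6.81 CPM), Pax6 (95.5 and 5.45 CPM) and Isl1 (75.4 and 3.40 CPM) were far higher in cluster 9, and Lmx1a (17.6 and 223 CPM) in cluster 10. Mlxipl (453 and 327 CPM), Rfx3 (248 and 201 CPM) and Onecut2 (144 and 106 CPM) differed less, at higher levels over both clusters than Etv1. In the same pool of other clusters Mlxipl had 310, Rfx3 128 and Onecut2 146 CPM, so Onecut2 was not raised in either hormone cluster. Of the receptors, Htr4 had 24.15 and 22.5 CPM, Htr2b 23.3 and 12.9 CPM and Gipr 9.22 and 8.17 CPM. The pooled other clusters had 24.0 CPM of Htr4, 21.4 CPM of Htr2b and 2.04 CPM of Gipr, so Htr4 and Htr2b in cluster 9 lay close to the level elsewhere. The sensors Abcc8 (57.5 and 4.08 CPM) and Ffar1 (13.8 and 2.72 CPM) were higher in cluster 9 and Trpa1 (3.53 and 18.4 CPM) in cluster 10. Slc5a1, the sensor with the highest level, differed less (176 and 144 CPM) and had 169 CPM in the pooled other clusters.

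The media were compared next, first over all nuclei of a library. A sum over all nuclei does not separate the number of hormone nuclei from the RNA per nucleus. Clusters 9 and 10 held 1.90%, 2.37% and 5.76% of the nuclei of QCM replicates 1, 2 and 3 and 1.63%, 2.63% and 2.60% of those of the SCM replicates, a difference of -1.06 percentage points (exact permutation test, p = 0.6), and levels within the clusters are given further on. Each of the 10 genes had a lower estimate in SCM, while 51.4% of all 19046 genes tested did, but the edgeR quasi-likelihood test called 0 genes (0.00% of all tested), with adjusted p between 0.927 and 0.93 for the 10. DESeq2 called 20 genes, and 866 (4.55%) had an unadjusted edgeR p under 0.05. The members' estimates share libraries and background, and so are not separate observations. In simulated counts with the same libraries the test recovered 5% of 2-fold and 53% of 4-fold changes, so most changes of 2-fold could not be called here.

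Pyy, Sct and Gcg were the 3 genes whose libraries did not overlap over all nuclei. Pyy had 6.43, 4.94 and 7.03 CPM in QCM replicates 1, 2 and 3 and 2.46, 1.97 and 3.13 CPM in the SCM replicates. All SCM values lay below all QCM values, and the means were 6.13 ± 1.07 (SD, n = 3) and 2.52 ± 0.58 CPM (SD, n = 3), with a log2 ratio of -1.44 ± 0.35 (SE). Sct had 12.48, 6.63 and 14.2 CPM in QCM and 3.19, 4.47 and 6.53 CPM in SCM, with a log2 ratio of -1.37 ± 0.42 (SE). Gcg had 52.1, 56.6 and 92.8 CPM in QCM and 51.6, 33.1 and 46.3 CPM in SCM, a narrow gap, with a log2 ratio of -0.78 ± 0.27 (SE). In SCM replicate 1, 143 of the 210 Gcg UMIs (68.1%) came from 1 nucleus. Of all genes tested, 2.12% had every SCM library below every QCM library. Outside clusters 9 and 10 lay 85.9% of Pyy, 80.4% of Sct and 68.75% of Gcg UMIs. In clusters 0 to 8, whose nuclei are part of the sums over all nuclei, these 3 genes did not overlap either. The share of all genes without overlap in clusters 0 to 8 was not computed, so this is not read as a separate result. Pyy there had 5.61 ± 1.41 CPM in QCM and 2.26 ± 0.607 CPM in SCM (SD, n = 3 each). Sct had 9.76 ± 3.89 and 3.67 ± 0.634 CPM, and Gcg 50.6 ± 18.2 and 23.2 ± 5.31 CPM. The part of the hormone clusters in the differences over all nuclei was not tested.

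For the other hormones the groups overlapped. Gip had 33.2, 57.9 and 235 CPM in QCM and 17.9, 19.9 and 70.6 CPM in SCM, with a log2 ratio of -1.66 ± 0.80 (SE). The high value of QCM replicate 3 accounted for most of the QCM mean of 109 ± 110.0 CPM (SD, n = 3). Cck had 65.7, 49.8 and 136 CPM in QCM and 13.02, 22.6 and 70.6 CPM in SCM, with a log2 ratio of -1.35 ± 0.64 (SE). Ghrl had 20.3, 7.08 and 18.9 CPM in QCM and 1.97, 3.80 and 7.54 CPM in SCM, with a log2 ratio of -1.91 ± 0.59 (SE), and SCM replicate 3 lay above QCM replicate 2. Tac1 had 9.97, 4.78 and 14.5 CPM in QCM and 0.737, 2.79 and 5.60 CPM in SCM, with a log2 ratio of -1.72 ± 0.65 (SE). Again a single SCM library, replicate 3, passed the lowest QCM library. Tph1 had 3.29, 2.43 and 4.82 CPM in QCM and 0.246, 2.02 and 3.66 CPM in SCM, with a log2 ratio of -0.84 ± 0.67 (SE). Nts and Sst had log2 ratios of -1.32 ± 1.11 (SE) and -0.58 ± 0.78 (SE).

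The unadjusted p was under 0.05 for Pyy, Sct, Ghrl, Gcg and Tac1, or 5 of 10, where 3.08% of all genes tested were so and lower in SCM. With replicates 2 and 3 alone, an alternative chosen after seeing the data, all 10 estimates again lay below 0, from -1.74 for Gip to -0.39 for Tph1. Leaving out 1 library at a time moved Gip between -2.66 and -0.44, Cck between -2.40 and -0.89 and Tph1 between -1.61 and -0.44. It moved Tac1 between -2.51 and -1.36, Ghrl between -2.59 and -1.50 and Nts between -1.83 and -0.73. The summed level of the 8 enteroendocrine markers moved with these sums, at 170, 129 and 189 CPM in QCM and 43.5, 86.7 and 128 CPM in SCM. Markers of other cell types differed between libraries too. Stem markers had 1077, 2355 and 1231 CPM in QCM and 1985, 2578 and 1488 CPM in SCM. The summed Paneth markers had 2657, 632 and 528 CPM in QCM and 580, 442 and 333 CPM in SCM, and the enterocyte markers 4000, 767 and 1845 CPM against 285, 715 and 1335 CPM. Goblet markers had 1123, 496 and 694 CPM against 308, 559 and 399 CPM, and each of these 4 lists overlapped between the media. The level outside the hormone clusters was lower on average as well. In clusters 0 to 8 the 10 genes together had 246 ± 123 CPM (SD, n = 3) in QCM and 101 ± 54.1 CPM (SD, n = 3) in SCM. The part of these in the difference was not tested.

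**Figure D4:**
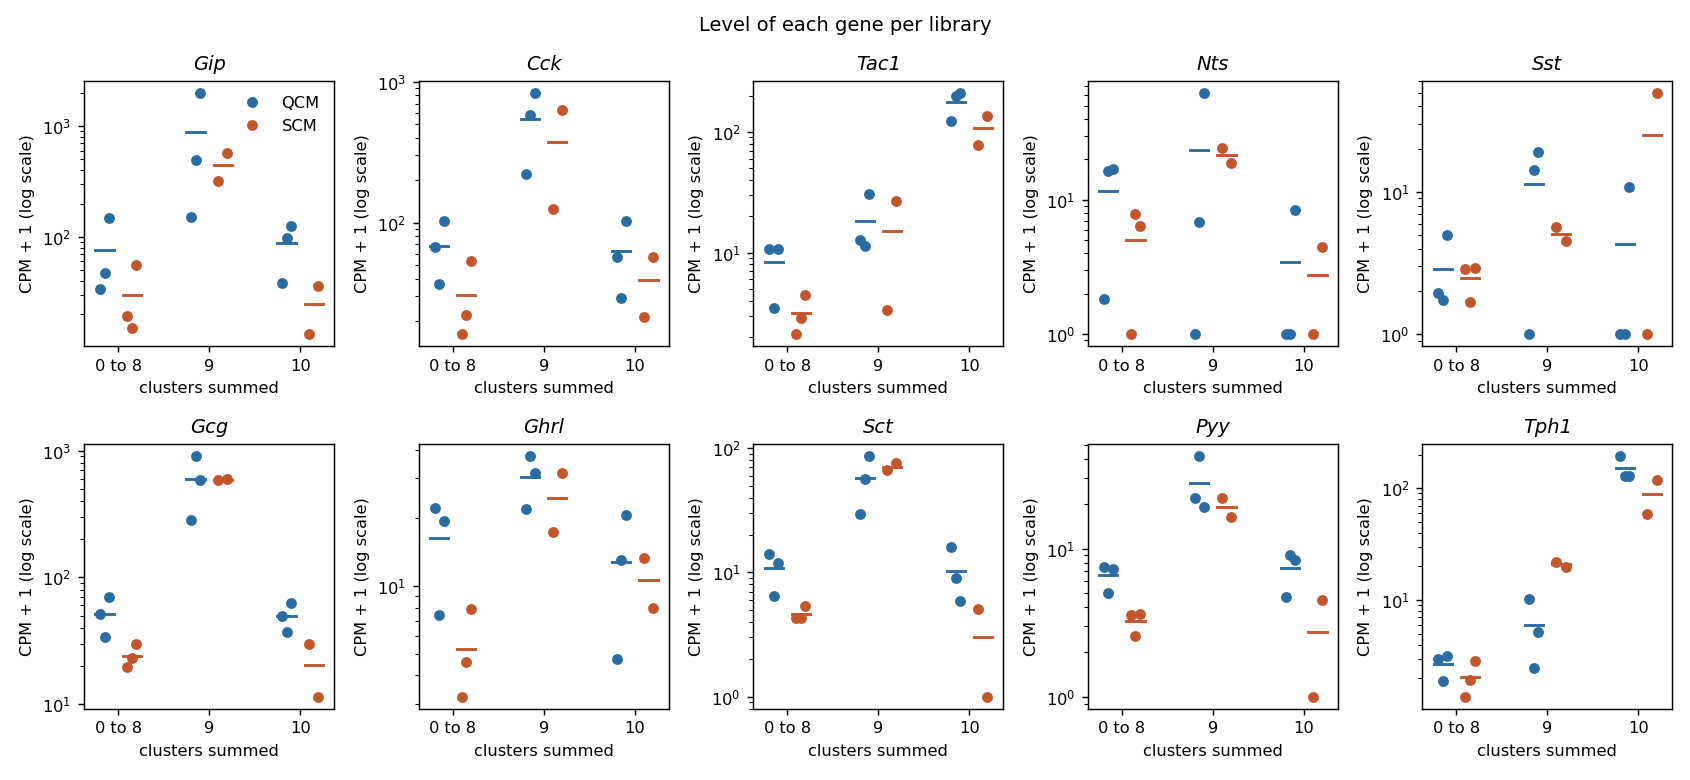
CPM + 1 on a log axis of each of the 10 genes, 1 panel per gene, in clusters 0 to 8 together, cluster 9 and cluster 10, with 1 point per library (QCM blue, SCM orange) and a line at the group mean. SCM replicate 1 is left out of clusters 9 and 10, where it held 3 and 4 nuclei. The media overlap for most genes in cluster 9, and the 5 points of Tph1 and Tac1 rise from clusters 0 to 8 to cluster 10.

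Within cluster 9, where 3 QCM libraries were compared with 2 SCM libraries, 8 of the 10 genes had a lower estimate in SCM, as did 51.1% of all genes tested there, and none was called. Among the 10, Sst passed the filter on low counts only through QCM libraries and Tph1 only through SCM libraries. The filter therefore favoured the direction of their estimates. Gip had 149, 495 and 1987 CPM in QCM and 317 and 570 CPM in SCM replicates 2 and 3. The SCM values lay inside the QCM range, and the log2 ratio was -1.10 ± 0.89 (SE). Cck had 219, 579 and 831 CPM in QCM and 124 and 627 CPM in SCM, with a log2 ratio of -0.58 ± 0.69 (SE). Gcg had 282, 909.9 and 584 CPM in QCM and 583 and 592 CPM in SCM, with a log2 ratio of -0.06 ± 0.43 (SE). Its means were 592 ± 314 (SD, n = 3) and 587 ± 6.15 CPM (SD, n = 2). Sct had 28.7, 55.95 and 85.8 CPM in QCM and 65.3 and 74.2 CPM in SCM, with a log2 ratio of 0.21 ± 0.42 (SE). The spread among QCM libraries exceeded the difference between media for each of these 4 genes. The edgeR test called 0 of 10250 genes (0.00%) in cluster 9 and DESeq2 0, while 309 (3.01%) had an unadjusted edgeR p under 0.05. Without QCM replicate 1 the estimates were -1.61 for Gip, -0.98 for Cck, -0.40 for Gcg and -0.12 for Sct, so Sct changed sign, and 0 genes were called. Leaving out 1 library at a time turned the sign of 7 of the 10 estimates, those of Gip, Cck, Tac1, Nts, Gcg, Ghrl and Sct.

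Tph1 was the gene of the list whose libraries did not overlap in cluster 9, and it was higher in SCM. It passed the filter on low counts there only through SCM libraries. The filter therefore favoured a higher estimate, and nothing is read from its lack of overlap. It had 9.14, 1.47 and 4.24 CPM in QCM and 20.98 and 18.9 CPM in SCM, with a log2 ratio of 1.87 ± 0.65 (SE) and an edgeR adjusted p of 0.966, and 2.54 without QCM replicate 1. The counts behind it were 7, 1 and 4 UMIs in QCM and 9 and 16 UMIs in SCM. All 9 UMIs of SCM replicate 2 came from a single nucleus, and 7 of the 16 in SCM replicate 3 from another. Tph1 was also the 1 gene of the 10 with an unadjusted p under 0.05 there, in the direction that the filter favoured. Of all genes tested in cluster 9, 10.4% had every SCM library above every QCM library, and 1.01% had an unadjusted p under 0.05 with a higher estimate in SCM.

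In cluster 10, 5 of the 10 genes passed the filter on low counts, and each had a lower estimate in SCM, as did 51.7% of all genes tested. Gip and Gcg, with at most 34.8 and 28.6 CPM in SCM, passed the filter only through QCM libraries. The filter therefore favoured a lower estimate for these 2 genes. Tph1 had 194, 129 and 128 CPM in QCM and 57.2 and 118 CPM in SCM, with a log2 ratio of -0.99 ± 0.42 (SE). Tac1 had 123, 197 and 209 CPM in QCM and 77.7 and 136 CPM in SCM, with a log2 ratio of -0.92 ± 0.34 (SE). For Tph1 the groups did not overlap, and for Tac1 SCM replicate 3 lay above QCM replicate 1. The means were 150.1 ± 37.8 (SD, n = 3) and 87.7 ± 43.1 CPM (SD, n = 2) for Tph1, and 176 ± 46.6 (SD, n = 3) and 107 ± 40.97 CPM (SD, n = 2) for Tac1. The edgeR adjusted p of the 5 genes lay between 0.638 and 0.705, and 0 of 6302 genes were called (0.00%), also by DESeq2. The unadjusted edgeR p was under 0.05 for 462 genes (7.33%). Lower estimates among these came to 6.03% of the genes tested, and to 4 of the 5 members, Cck being the other. These 4 include Gip and Gcg, which the filter favoured, so nothing is read from the count. Without QCM replicate 1, which leaves replicates 2 and 3 of each medium, the estimates were -0.66 for Tph1, -1.05 for Tac1, -2.34 for Gip and -0.998 for Cck, Gcg did not pass the filter, and 0 genes were called.

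Gip, Gcg and Cck in cluster 10 lay close to the background share described above. Gip had 37.3, 96.5 and 125 CPM in QCM and 12.3 and 34.8 CPM in SCM, with a log2 ratio of -2.04 ± 0.58 (SE), and 16 of the 24 UMIs of QCM replicate 2 came from 1 nucleus. Gcg had 48.5, 36.2 and 61.5 CPM in QCM and 28.6 and 10.4 CPM in SCM, with a log2 ratio of -1.59 ± 0.56 (SE). Cck had 55.9, 28.2 and 101 CPM in QCM and 20.4 and 55.6 CPM in SCM, with a log2 ratio of -0.96 ± 0.62 (SE). The groups did not overlap for Gip and Gcg, as for Tph1, and 8.05% of all genes tested in cluster 10 had every SCM library below every QCM library. Since Gip and Gcg passed the filter only through QCM libraries, nothing is read from their lack of overlap. In clusters 0 to 8 of the same libraries Gip had 32.8, 46.2 and 147 CPM in QCM and 14.1 and 54.8 CPM in SCM, which overlap. Gcg there had 50.3, 32.6 and 68.9 CPM in QCM and 22.1 and 28.9 CPM in SCM, which do not overlap. The part of the surrounding level in the cluster 10 values was not tested.

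**Figure D5:**
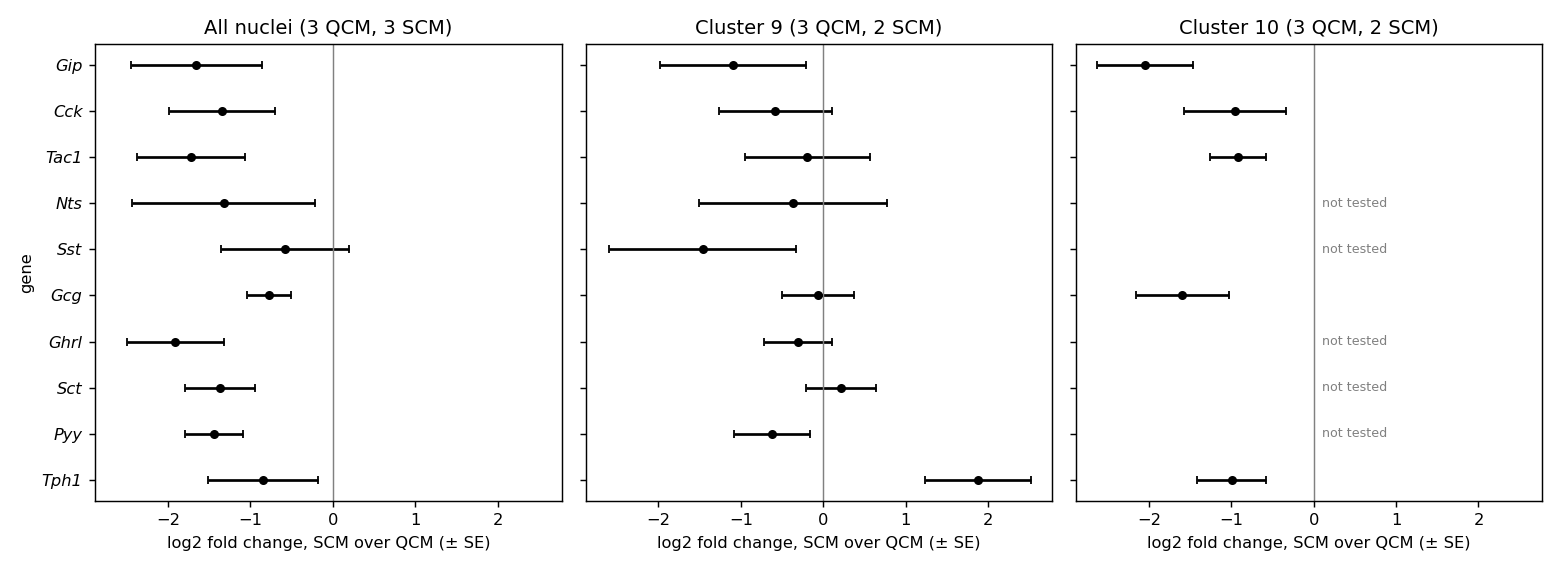
Log2 ratio of SCM to QCM with its standard error, as fitted by edgeR, for the 10 genes in all nuclei and in cluster 9. Cluster 10 has estimates only for Gip, Cck, Tac1, Gcg and Tph1, the genes that passed the filter on low counts there. A line marks 0. All 10 estimates for all nuclei lie below 0, from -1.91 for Ghrl to -0.58 for Sst, while in cluster 9 Sct and Tph1 lie above it.

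The difference between clusters in the effect of the medium was fitted directly for 8912 genes. For Tph1 the log2 ratio in cluster 10 less that in cluster 9 was -2.77 ± 0.58 (SE), and its edgeR adjusted p was 0.317. Without QCM replicate 1 it was -3.08, with an edgeR adjusted p of 0.123, and without the 5% of nuclei with the most UMIs it was -0.78. Gcg gave -1.55 ± 0.62 (SE), at an edgeR adjusted p of 1, and Gip gave -1.18. The test called 0 genes (0.00%), and 314 (3.52%) had an unadjusted edgeR p under 0.05, so no hormone gene was shown to respond differently in the 2 clusters.

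Clusters 9 and 10 summed per library gave estimates of -1.14 ± 0.85 (SE) for Gip, -0.63 ± 0.38 (SE) for Tac1 and -0.78 ± 0.44 (SE) for Pyy. The 2 SCM libraries lay below the 3 QCM libraries for Pyy, as they did for 6.98% of the 11082 genes tested, of which edgeR called 0 (0.00%), DESeq2 0, and 444 had an unadjusted edgeR p under 0.05. The mix of the clusters was also compared. Cluster 10 made up 40.3%, 38.8% and 35.1% of the nuclei of both clusters in QCM and 57.1%, 59.1% and 33.3% in SCM. The first of these SCM values rested on 7 nuclei. The means were 38.1% ± 2.67 (SD, n = 3) and 49.9% ± 14.3 (SD, n = 3). A two-sided exact permutation test gave p = 0.4, where 0.1 is the smallest that 3 libraries against 3 allow. The share of these nuclei with a UMI of any of the 10 genes, after thinning, was 31.8%, 35.3% and 47.7% in QCM and 46.1%, 23.4% and 27.4% in SCM (exact permutation test, p = 0.5). Before thinning the shares were 88.9%, 55.3% and 62.0% in QCM and 71.4%, 43.9% and 43.3% in SCM. The value of 46.1% rested on 5 nuclei, and without SCM replicate 1 the thinned share was 12.9 percentage points lower in SCM, with both SCM libraries below all QCM libraries. With all 6 libraries neither difference exceeded the larger SD of the groups.

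The edgeR test called none of the hormone partner genes between the media, as it called 0 genes in all. Over all nuclei, 14 of 16 granule genes tested, 6 of 9 serotonin pathway genes, 15 of 18 transcription factor genes and 8 of 9 nutrient sensing genes had a lower estimate in SCM. Of these, 4 granule, 3 serotonin and 1 transcription factor gene had an unadjusted p under 0.05 with a lower estimate, as did 3.08% of all genes tested. The last was Insm1, which acts in endocrine differentiation, with a log2 ratio of -1.72. Of 21 hormone receptor genes 20 were measured and 6 tested, of which 3 had a lower estimate and 0 were under 0.05. These counts stand beside 51.4% of all genes with an estimate below 0, and share the libraries and the marker levels given above. Within clusters 9 and 10 the counts of lower estimates were 4 of 12 granule, 6 of 9 serotonin and 7 of 16 transcription factor genes. They were 2 of 6 sensing and 0 of 3 receptor genes, beside 5702 of 11082 genes tested.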

How the data were processed

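The authors counted RNA of organoid nuclei by 3′ droplet sequencing, aligned reads to mm10 and filtered nuclei by mitochondrial share, reads and features. The submitters' processing notes name Cell Ranger 2.1.1. The deposited matrices hold UMI counts, and the deposited table of nuclei gives cluster numbers. No doublet caller is named in the methods and doublets were not removed here.

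All 38154 nuclei were used. Counts were summed per library, or per library and cluster, and given as CPM. Libraries with under 10 nuclei of a cluster were left out of its fit. The sums were compared with the edgeR 4.0.16 quasi-likelihood test in R 4.3.3 (TMM, filterByExpr with a minimum count of 10, Benjamini-Hochberg adjustment over all genes, threshold 0.05), with DESeq2 1.42.0 as an alternative. Scripts were tested on simulated counts. Shares have Wilson 95% intervals, and thinned shares are expected values at 1000 UMIs, for nuclei of at least that depth. Shares per library were compared with exact permutation tests. Genes other than the 10 come from lists by role. The closest genes were the 3 with the highest Pearson r among genes outside the 10 with at least 100 UMIs. The members and lists were chosen with earlier results of these data known.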

Additional observations from a re-analysis of the deposited data

Results flagged for a closer look

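In cluster 7, 9 nuclei held 314 Nts UMIs outside the enteroendocrine-like clusters. They were chosen for holding 5 or more Nts UMIs each, so the sum is a description. The enteroendocrine markers were at 0 in them apart from 1 Chgb UMI, and no source for the signal was tested.

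The Tph1 estimate differed between the hormone clusters, with a log2 ratio of SCM to QCM of 1.87 ± 0.65 (SE) in cluster 9 and -0.99 ± 0.42 (SE) in cluster 10. Tph1 passed the filter on low counts in cluster 9 only through SCM libraries, so nothing is read from its lack of overlap there. The libraries did not overlap in either cluster, and lay in opposite directions. Without the nucleus with the most Tph1 UMIs of each library they overlapped in both, with 2.74, 0 and 3.20 CPM in QCM and 0 and 10.9 CPM in SCM in cluster 9, and 147, 112 and 110.0 CPM against 37.3 and 111 CPM in cluster 10. The difference was -2.77 with an edgeR adjusted p of 0.317, so it did not pass the test. Without the 5% of nuclei with the most UMIs in each library it was -0.78, and leaving out 1 library at a time gave -3.51 to -2.36. The cluster 9 values rested on 37 UMIs.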

How the results depend on the processing

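Of 590 values under alternatives, over 75 results, 536 kept their direction and side of the threshold, or their size. Of the rest, 32 turned sign, 18 gave more called genes or crossed the threshold, and 4 moved in size. Counts of called genes changed in several settings. Over all nuclei DESeq2 called 20 genes where edgeR called 0. Without the filter on low counts edgeR called 79 genes in cluster 9, 118 in cluster 10, 165 in both together and 8 for the difference between clusters. With scaling by library size alone it called 1 gene in cluster 10. Leaving out 1 library at a time, the called genes ranged from 0 to 31 in cluster 10 (31 without QCM replicate 2) and from 0 to 1 for the difference between clusters. The cause was not tested. A lone SCM library in such fits is assumed to vary like the others.

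The labels tie no number to a shared animal or day, and the deviations of same-numbered libraries correlated at 0.364, 0.462 and -0.088, so the numbers were not taken to pair the libraries. QCM replicate 3 correlated best with SCM replicate 1. With a replicate block the test called 208 genes in cluster 9 and 80 in both clusters together, and 0 in the other sums. In the pairing, Sct became -0.13 in cluster 9 and -0.19 in both clusters, and Sst -0.58 in both.

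Some directions turned when nuclei were left out. Without the 5% of nuclei with the most UMIs, the log2 ratio became 0.029 for Nts in cluster 9 and -0.012 for Sct in both clusters, and the difference between clusters became 0.55 for Cck and 0.47 for Tac1. Without the nucleus with the most hormone UMIs per library and cluster, an alternative chosen after seeing the data, Sct became -0.34 in cluster 9 and -0.41 in both, and Sst -1.46 in both. The nuclei left in such sums are fewer, and the cause was not tested. With 5 UMIs as the limit, also chosen after seeing the data, co-detection of Cck in nuclei with Gcg moved to 88.5%.

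Leaving out 1 library turned the sign of several estimates. Sst over all nuclei ranged from -1.39 to 0.55. In cluster 9 the ranges were -1.64 to 0.49 for Gip, -2.26 to 0.16 for Cck, -2.96 to 0.49 for Tac1, -0.95 to 2.76 for Nts, -0.40 to 0.31 for Gcg, -0.95 to 0.031 for Ghrl and -0.12 to 0.74 for Sct. In both clusters together they were -1.82 to 0.34 for Gip, -2.38 to 0.17 for Cck, -1.003 to 2.70 for Nts, -1.64 to 0.70 for Sst, -0.47 to 0.18 for Gcg and -0.18 to 0.52 for Sct. For the difference between clusters they were -0.70 to 0.44 for Cck, -1.18 to 1.53 for Tac1 and -0.98 to 0.78 for Ghrl. The share of nuclei in clusters 9 and 10, which differed by -1.06 percentage points over all libraries, differed by -1.78 to 0.15 percentage points, and was higher in SCM only without QCM replicate 3.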
